A study of Quercus robur with 12 samples.

Results

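Small RNAs of well-watered lateral roots (LR-CT, 3 libraries) were compared with those of well-watered taproots (TR-CT, 3 libraries) of pedunculate oak, Quercus robur, using 6 of the 12 libraries of the series. The members were taken from the labels, and every row of the count table was used: 75 miRNAs, 51 with a known miRNA's name (23 families) and 24 listed under their sequence alone. Each replicate pooled 10 to 15 root tips with the meristematic zone, cut from a taproot or from lateral roots that emerge from it. Both groups were watered at 100% of the control soil moisture throughout, and the drought-stressed groups (LR-DS and TR-DS, 3 libraries each), kept at 25% of it, serve below only as a second pair of the same root types. All seedlings were a year old and had 8 weeks of acclimatization under full watering before the treatments began. The seedlings were grown from acorns, no genotype beyond the species is named for them, and they were either raised in containers and moved to rhizotrons or sown directly. Which of these a library came from is not given per sample, so cultivation and root type cannot be told apart here. No marker genes of root cell types are contained in a miRNA table, so the labelled tissue could not be checked, and in whole root tips fewer cells of a type and less of a miRNA per cell cannot be told apart.

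Plant miRNAs are short RNAs, cut from hairpin precursors by a Dicer-like enzyme, which guide an Argonaute protein to messenger RNAs of nearly complementary sequence and lead to their cleavage or block their translation. Many of the conserved families act on transcription factors of the root tip. miR166 restricts HD-ZIP III factors, which set vascular and radial pattern, and miR390 triggers trans-acting small RNAs against auxin response factors, a step known in Arabidopsis for its role in lateral root growth. miR164 acts on NAC factors, miR396 on growth-regulating factors (GRF), miR156 and miR157 on SPL factors, and miR172 on AP2-like factors.

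The sequences on which the comparison turns are shown first, written 5′ to 3′ with the seed (bases 2 to 8) in capitals. Sequence-named miRNAs were numbered nov1 to nov24 in the order of the table. The first set holds the most abundant sequence (nov20), the sequences whose root types did not overlap and nov21, one of the only 2 miRNAs to pass the test once the library labelled TR-CT replicate 3 was left out:
nov14: aCUAUUGUggagcaccugcuc
nov15: uUAGUCCAagacucggccaca
nov16: uUUCAGAAugagaggcaaguc
nov19: cGUGAUAUugguucggcucuuc
nov20: cCGGUCUGcucguccc
nov21: cGCAGAUUagcguggcaccauc
nov22: uUUGGAAAcgcacuugaaucg
nov24: uUAGAUUCacgcacaaacucu
With 16 nt, nov20 was the shortest of the 24, the others measuring 20 to 22 nt. Its length lies below the size range that, per the study's methods, the libraries were enriched for. nov20 is counted here as a miRNA only because the count table lists it, and whether it is a miRNA was not tested. The second set holds the family sequences behind the known miRNAs that are described most closely. They were read from the small RNA strand of the study's target table, which gives the family without the member's letter:
miR162: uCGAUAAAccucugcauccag
miR166 sequence 1: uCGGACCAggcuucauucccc
miR166 sequence 2: uCUCGGACcaggcuucauucc
miR171 sequence 2: cGUGAUAUugauuuggcucuuc
miR171 sequence 3: uGUGAUAUugguacggcucguc
miR172: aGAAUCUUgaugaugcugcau
miR390: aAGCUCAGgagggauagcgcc
miR396 sequence 2: uUCCACGGcuuucuugaacug
nov19 shared its seed with both miR171 sequences shown, and differed from them at 2 and 3 of 22 positions. nov1 and nov6 carried the same sequence in separate rows. Members of one family can be nearly identical, so reads may have been split between their rows by the counting, and values of single letters within a family are uncertain to that extent.

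The counts summed to 764615, 845480 and 1057196 in LR-CT and to 445139, 1267473 and 660151 in TR-CT, and the 16-nt sequence nov20 took most of them in 4 of the 6 libraries. Its share was 60.6%, 34.1% and 47.9% in LR-CT (47.6% ± 13.3, SD, n = 3) and 55.1%, 89.1% and 73.3% in TR-CT (72.5% ± 17.0, SD, n = 3). The groups overlapped, and an exact permutation test of the means gave p = 0.2 (two-sided). As 0.1 is the smallest value that 3 against 3 libraries allow, this test could not settle whether the share differs. The other 74 miRNAs thus rested on 300906, 557180 and 550694 counts in LR-CT, against on 199650, 138088 and 176026 in TR-CT. Intervals and floors given below cover counting error only, since the reads carried no molecular identifiers.

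The library labelled TR-CT replicate 3 stood apart. CPM are counts divided by the TMM-scaled library size, but for the correlations the plain library size was used. Over the log2 CPM of 75 miRNAs, Pearson correlations were 0.972 to 0.977 among the LR-CT libraries, 0.925 to 0.960 between LR-CT and the other TR-CT libraries, and 0.943 between TR-CT replicates 1 and 2. TR-CT replicate 3 correlated with the other 5 control libraries at 0.815 to 0.840 and with the 6 drought libraries at 0.847 to 0.949. Resemblance to a single drought library was not particular to it. TR-CT replicate 2 correlated with TR-DS replicate 2 at 0.954, above its value with any control library (at most 0.945). Its values with the other drought libraries were 0.756 to 0.906. Only TR-CT replicate 3 correlated more closely with every drought library than with any control library, and the cause was not tested. The label of TR-CT replicate 3 was kept, and values that moved by over 1.5 times without it are given both ways. The spread between replicates, as the common biological coefficient of variation, was 0.755 with all 6 libraries and 0.426 without that one.

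Apart from nov20, lateral roots and taproots were built from the same few miRNAs, and 10 of them made up 82.2% to 90.8% of the remaining counts in every control library. miR159a, which acts on GAMYB-like factors, had the highest mean share, with 30.0%, 45.7% and 40.0% of these counts in LR-CT, against 38.6%, 25.4% and 16.4% in TR-CT. The 2 groups overlapped, and in TR-CT replicate 2 nov2 (26.4%) and in replicate 3 miR166d (18.7%) were above it. nov22, the third by mean share, held 12.2%, 11.3% and 11.7% in LR-CT and 8.71%, 9.64% and 3.22% in TR-CT, without overlap. The miR166 family took 23.0%, 17.5% and 18.4% in LR-CT and 19.0%, 17.9% and 51.6% in TR-CT, so that the high value lay in TR-CT replicate 3 alone. Among the abundant miRNAs with overlapping groups, the log2FC (LR-CT over TR-CT) was 0.64 for miR159a (SE 0.51), -0.20 for nov2 (SE 0.46), -0.07 for nov3 (SE 0.57), -0.72 for miR166a (SE 0.41), -0.06 for miR166b (SE 0.37) and -0.85 for miR166d (SE 0.63), each less than 2 SE from 0. Without TR-CT replicate 3 it was -0.44 for nov2, -0.39 for nov3, 0.22 for miR166b and 0.24 for miR166d. nov20 itself had a log2FC of -1.80 (SE 0.73, FDR = 0.43, edgeR), or -2.02 without TR-CT replicate 3 and -0.69 without TR-CT replicate 2. Under drought nov20 was higher in LR-DS than in TR-DS without overlap, by a log2FC of 0.58 (FDR = 0.885, edgeR), and the test of that change between water regimes gave an FDR of 0.202 (edgeR).

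**Figure D1:**
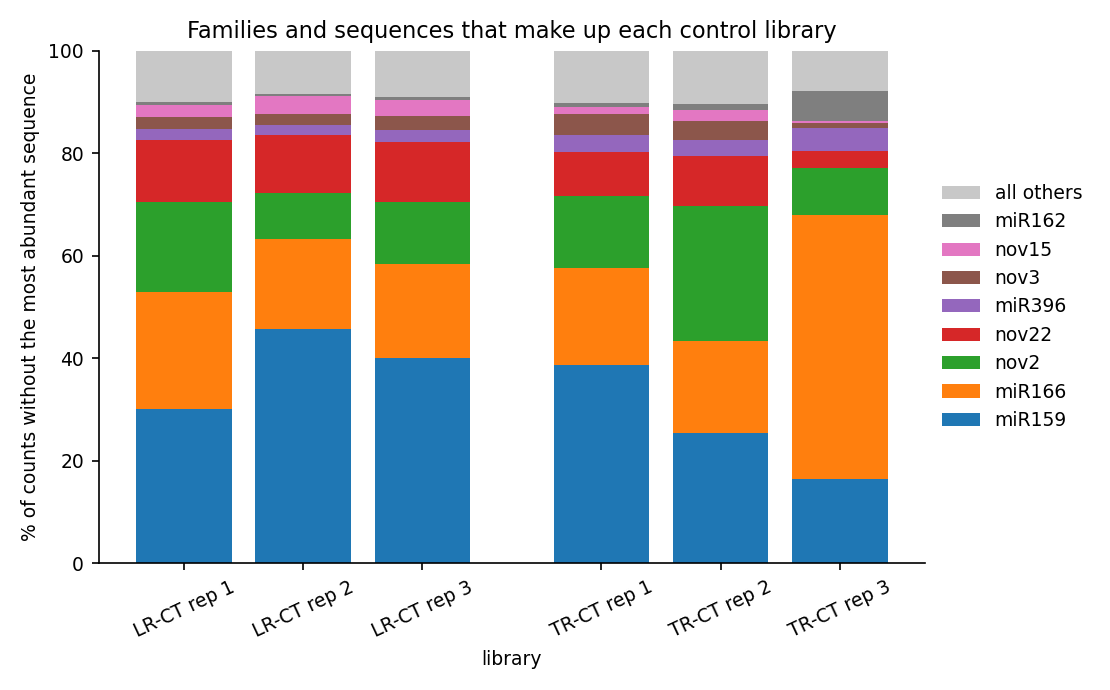
Share (%) of the counts without the most abundant sequence taken by the 8 largest families or sequences, for the 3 LR-CT and the 3 TR-CT libraries. In TR-CT replicate 3 miR166 reached 51.6%, against at most 23.0% in any other control library.

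All 75 miRNAs had counts in at least 1 control library and all were tested. In edgeR's quasi-likelihood test with Benjamini-Hochberg adjustment, 0 of the 75 (0%) passed an FDR of 0.05 and 5 (6.67%) were at or under 0.05 before adjustment. DESeq2 called 4 and edgeR's likelihood ratio test called 2. The log2FC (LR-CT over TR-CT) lay above 0 for 32 miRNAs and below 0 for 43, with a median of -0.20. In 16 miRNAs (21.3%) the log2 CPM of the groups did not overlap, with LR-CT above TR-CT for 12 (16%) and below it for 4 (5.33%). Scaled by library size alone, 19 were higher and 0 lower, so that the 12 kept their separation and the 4 lower ones, miR162a, miR157a, miR396c and miR164b, lost it. Without TR-CT replicate 3, groups of 3 and 2 libraries did not overlap in 33 miRNAs, 16 higher and 17 lower in LR-CT, and 14 of the 16 were among them. Fewer libraries make overlap rarer by construction. A miRNA already without overlap can lose its separation only through the refitted scaling, so these counts do not test the 16. Without TR-CT replicate 3, 2 of 75 (2.67%) passed the FDR of 0.05, miR166f, which was higher in lateral roots, and nov21, which was lower.

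**Figure D2:**
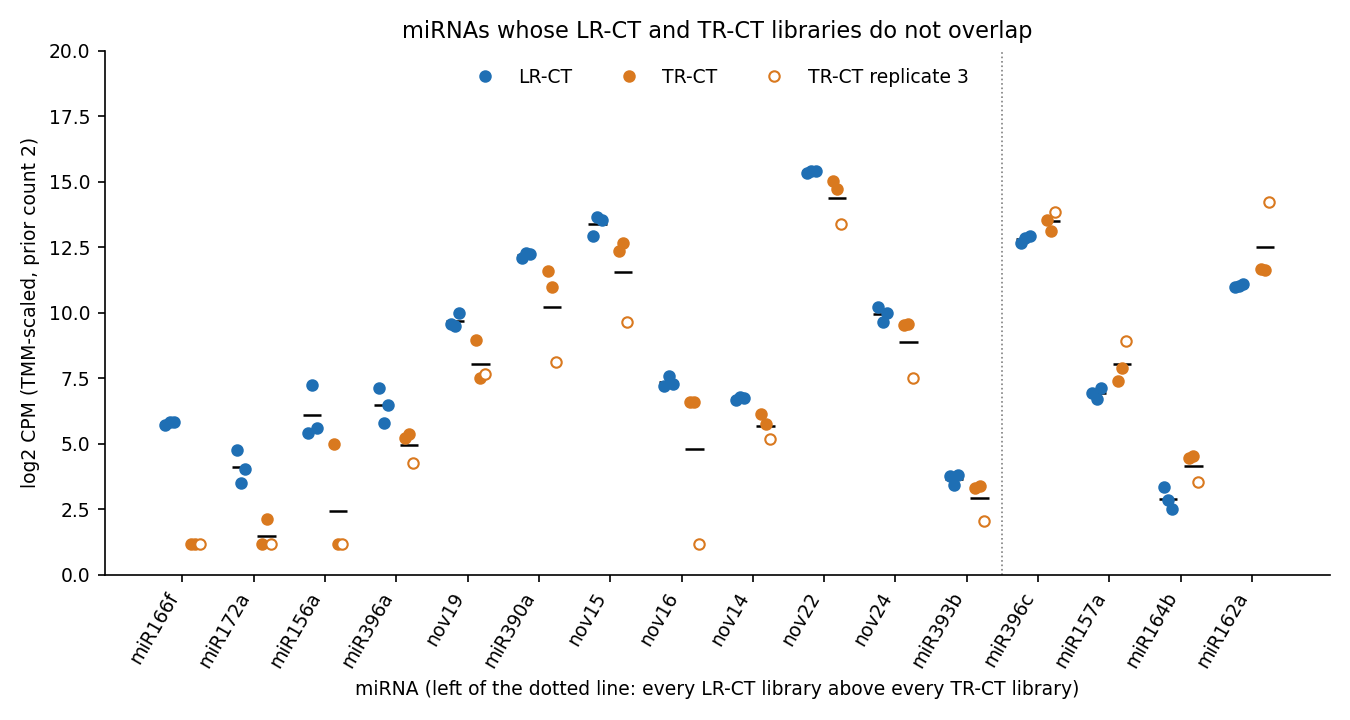
log2 CPM (TMM-scaled, prior count 2) per library of the 16 miRNAs whose groups did not overlap, with LR-CT in blue, TR-CT in orange, TR-CT replicate 3 open and the group mean as a bar. 12 of them lay higher in LR-CT, and 4, right of the dotted line, lay lower.

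miR166f, a low-abundance member of the HD-ZIP III regulators, separated the root types most clearly. It had 45, 79 and 80 counts in LR-CT, against 0, 0 and 0 counts in TR-CT, and was the only miRNA found in all libraries of one root type and in none of the other. Against a floor of 3 counts per library it was at least 9.09-fold higher in LR-CT. Its FDR was 0.0865 with all 6 libraries and 0.0243 without TR-CT replicate 3 (edgeR). It made up 0.0652%, 0.0808% and 0.0790% of the miR166 counts in LR-CT, so the difference concerns a very small part of the family. The drought libraries did not show the same pattern, with 3, 2 and 0 counts in LR-DS and 0, 0 and 2057 counts in TR-DS. The interaction of root type and drought was not past the threshold for miR166f (edgeR, FDR = 0.0979).

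The values of the abundant miR166 members depended on 1 library. miR166c had 727, 870 and 931 counts in LR-CT, against 241, 591 and 6885 counts in TR-CT. Its log2FC was -2.83 (SE 1.19, FDR = 0.43, edgeR) with all libraries and -0.30 without TR-CT replicate 3. miR166e had a log2FC of -0.27, or 0.89 without that library, and the family total one of -1.27 (SE 0.75), or 0.15 without it. Family totals were scaled by TMM factors of the summed table, so their log2FC is not on the scale of the members. For miR162, a family of 1 member, the log2FC was -3.02 on the family scale and -2.04 on that of single miRNAs. Of the 6 miR166 members 1 lay above 0, and 4 did so without TR-CT replicate 3.

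**Figure D3:**
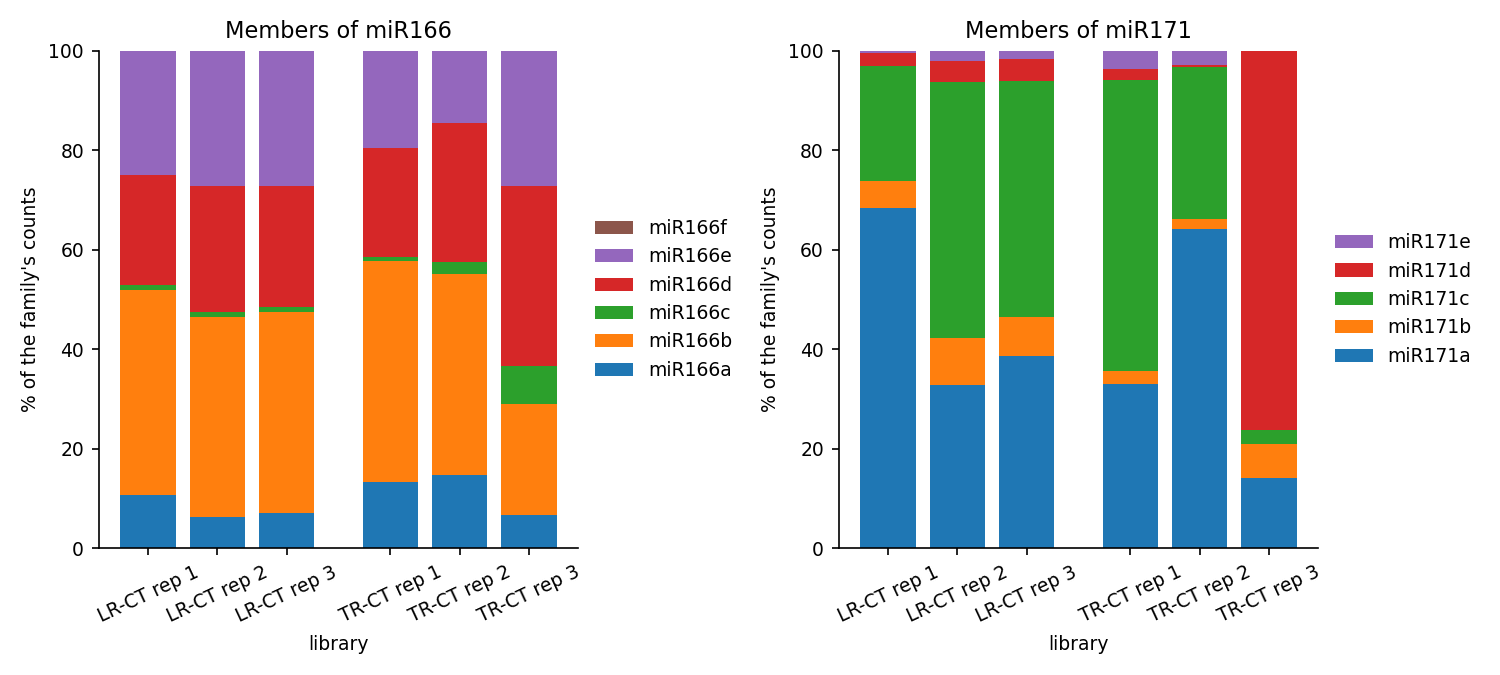
Share (%) of each member in the counts of miR166 and of miR171 in the 3 LR-CT and the 3 TR-CT libraries. miR171d held 76.3% of the miR171 counts in TR-CT replicate 3 and at most 4.40% in the other control libraries.

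The miR171 family, which acts on GRAS factors of the HAM type, showed the same dependence. miR171d had 84, 172 and 175 counts in LR-CT, against 41, 7 and 2804 counts in TR-CT, and its log2FC of -4.00 (SE 1.93, FDR = 0.43, edgeR) became 1.39 without TR-CT replicate 3. The family total, scaled by the factors of the summed table, had a log2FC of -1.25, or -0.02 without that library. nov19, whose seed matches 2 of the 3 miR171 sequences of the target table, did not depend on that library. The shared seed does not make nov19 a regulator of GRAS factors, and its targets were not tested. nov19 had 674, 1031 and 1507 counts in LR-CT, against 255, 87 and 108 counts in TR-CT. Its log2FC was 1.51 (SE 0.57, FDR = 0.43, edgeR), or 1.43 without TR-CT replicate 3, and every LR-CT library lay above every TR-CT library. Under drought nov19 had 171, 119 and 32 counts in LR-DS, against 67, 49 and 119 counts in TR-DS. These counts overlapped. After TMM scaling LR-DS lay above TR-DS without overlap, with a log2FC of 0.62 (FDR = 0.906, edgeR). Other scalings were not tried for this separation.

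Within the auxin-related families, the make-up of the miR390 family did not overlap between the root types, although no test of it passed after adjustment. miR390a had 3879, 7068 and 7181 counts in LR-CT, against 1573, 972 and 145 counts in TR-CT. The groups did not overlap, with a log2FC of 1.41 (SE 0.79, FDR = 0.445), or 1.00 (SE 0.20, FDR = 0.0663) without TR-CT replicate 3 (edgeR). miR390b had 1024, 1750 and 1881 counts in LR-CT, against 1100, 936 and 512 counts in TR-CT, with a log2FC of -0.46. miR390a thus held 79.1%, 80.2% and 79.2% of the miR390 counts in LR-CT, against 58.8%, 50.9% and 22.1% in TR-CT (p = 0.1 in the two-sided exact permutation test, the lowest that 3 against 3 can give, and 0.433 after Benjamini-Hochberg adjustment over 39 shares). A share within a family does not depend on the scaling of the libraries, but it does depend on how the counting split reads between similar members. Its difference between group means was 35.6 percentage points with all 6 libraries.

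The same share was read in the drought libraries, which are separate samples. It was 67.3%, 72.0% and 65.8% in LR-DS and 50.7%, 60.8% and 60.4% in TR-DS, again without overlap and with a smaller difference of 11.1 percentage points. The log2 CPM of miR390a itself overlapped between LR-DS and TR-DS, with a log2FC of 0.72 (FDR = 0.901, edgeR). A permutation test that kept the water regimes apart (400 arrangements, exact, two-sided) gave p = 0.005, the smallest it allows, and a Benjamini-Hochberg p of 0.0975 over the 39 shares. This test was chosen after the values were seen. Of the 39 member shares in families with more than 1 member, 9 (23.1%), from 5 of 11 families, did not overlap between LR-CT and TR-CT. The miR390 pair alone did so in both water regimes in the same direction. The shares of its 2 members are complements, so the pair is 1 result that the adjustment over 39 shares counts as 2.

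**Figure D4:**
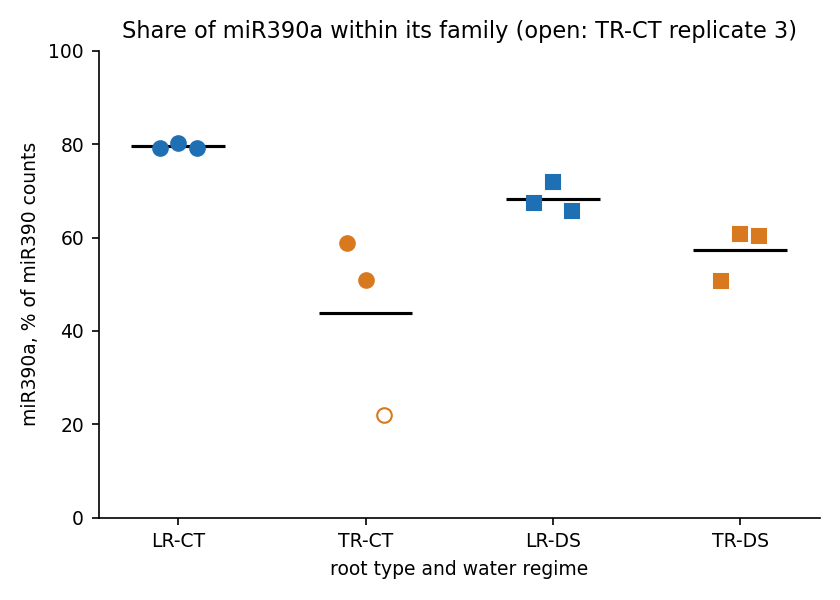
Share (%) of miR390a in the counts of the miR390 family in each library, with the group mean as a line. LR lay above TR in both water regimes, at 65.8% or more in every LR library and 60.8% or less in every TR library.

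The other auxin-related miRNAs gave mixed values. miR393b, of the family that acts on TIR1-type auxin receptors, had 10, 12 and 17 counts in LR-CT, against 4, 4 and 1 counts in TR-CT, a log2FC of 0.79 (SE 0.78), or 0.43 without TR-CT replicate 3. miR393a had 16, 23 and 14 counts in LR-CT, against 15, 3 and 236 counts in TR-CT, so its log2FC of -3.45 became -0.17 without TR-CT replicate 3. miR167a made up 93.4%, 95.3% and 95.6% of the miR167 counts in LR-CT, against 92.8%, 92.8% and 59.4% in TR-CT. Of the 9 auxin-related miRNAs 3 had a log2FC above 0 and 0 passed the FDR of 0.05 (0 of all 75).

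Of the age-related miRNAs, 2 of 5 were higher in LR-CT without overlap (12 of all 75) and 1 was lower (4 of all 75), and none passed the test with all 6 libraries. miR172a had 22, 13 and 21 counts in LR-CT, against 0, 1 and 0 counts in TR-CT. The ratio of summed counts, each divided by the TMM-scaled library sizes, was 22.7 (95% exact counting interval 3.90 to 911), with a log2FC of 4.33 (SE 1.22, FDR = 0.369, edgeR), or 7.01 without TR-CT replicate 2, which held the 1 count. In the drought libraries miR172a had 0, 8 and 0 counts in LR-DS and 22, 8 and 43 counts in TR-DS, an opposite order that was not past the threshold as an interaction (FDR = 0.167, edgeR). miR156a had 36, 211 and 68 counts in LR-CT, against 15, 0 and 0 counts in TR-CT, with a log2FC of 2.99 (SE 1.62), which was 9.23 without TR-CT replicate 1, the only well-watered taproot library with counts. It made up 4.13%, 13.3% and 4.65% of the miR156 counts in LR-CT and 2.98%, 0% and 0% in TR-CT. miR156b, the major member, overlapped between the groups, with a log2FC of -0.50 (SE 0.61), or -0.87 without TR-CT replicate 3. Under drought miR156a had 0, 0 and 0 counts in LR-DS and 0, 0 and 123 counts in TR-DS, with an interaction FDR of 0.202 (edgeR). miR157a, lower in LR-CT, had 108, 145 and 200 counts in LR-CT, against 86, 113 and 254 in TR-CT, and its log2FC after scaling was -1.29 (SE 0.61), or -0.70 without TR-CT replicate 3.

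The miR396 family, regulators of GRF factors, was split between a minor and a major member. miR396a, the minor one, had 122, 76 and 127 counts in LR-CT, against 18, 19 and 9 counts in TR-CT, with a log2FC of 1.60 (SE 0.71, FDR = 0.43, edgeR). miR396c, the major one, took 1.91%, 1.89% and 2.09% of the counts without nov20 in LR-CT and 3.12%, 3.11% and 4.52% in TR-CT, with a log2FC of -0.73 (SE 0.36, FDR = 0.43, edgeR) that was -0.45 without TR-CT replicate 3 and 0.067 when scaled by library size alone. Neither overlapped between the root types. miR396a made up 1.99%, 0.684% and 1.05% of its family in LR-CT and 0.276%, 0.425% and 0.110% in TR-CT, a comparison free of that scaling. The miR396 total, scaled by the factors of the summed table, was lower in LR-CT without overlap (log2FC -1.32, SE 0.52, FDR = 0.256, edgeR). It was -0.56 without TR-CT replicate 3 and 0.10 when scaled by library size alone. DESeq2 called this total at an FDR of 0.05.

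The NAC regulators of the miR164 family lay below 0 for 5 of 5 members, against 43 of all 75, although 4 of 5 lay above 0 when scaled by library size alone, as did 59 of all 75, and 1 of them, miR164b, was lower without overlap (4 of all 75). The counts of the whole family were 234, 466 and 525 in LR-CT and 347, 244 and 150 in TR-CT. Its log2FC was -0.97 (SE 0.45, FDR = 0.303, edgeR) with the factors of the summed table, and -0.94 without TR-CT replicate 3. It was 0.18 when scaled by library size alone. miR164b itself had 7, 7 and 5 counts in LR-CT, against 10, 10 and 5 counts in TR-CT.

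Among the miRNAs of the small RNA machinery, miR162a, which acts on the Dicer-like enzyme itself, was lower in LR-CT without overlap. It had 1806, 2968 and 3243 counts in LR-CT, against 1685, 1556 and 10361 counts in TR-CT, and its log2FC was -2.04 (SE 0.78, FDR = 0.43, edgeR), or -0.56 (SE 0.18) without TR-CT replicate 3. miR168a, which acts on an Argonaute, was nearly level at 0.608%, 0.609% and 0.648% of the counts without nov20 in LR-CT and 0.546%, 0.697% and 0.595% in TR-CT (log2FC 0.18, SE 0.33).

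None of the miRNAs of nutrient supply passed the FDR of 0.05 (0 of all 75). Of 7 miRNAs of sulfate and phosphate supply, 2 lay above 0. miR395a and miR395b, regulators of sulfate uptake and assimilation, had 3 counts each over the LR-CT libraries and 24 each over the TR-CT libraries, of which 20 and 19 were in TR-CT replicate 3. The ratio of summed scaled counts, TR-CT over LR-CT, was 19.8 for each (95% exact counting interval 6.0 to 103). Without TR-CT replicate 3 it was 4.77 (0.808 to 32.6) for miR395a and 5.97 (1.16 to 38.4) for miR395b. All 3 copper-related miRNAs lay below 0 (-0.58 to -0.36), whereas 2 of 3 lay above 0 without that library and 3 of 3 when scaled by library size alone. Of the remaining lists, 3 of 5 GRAS regulators, 2 of 2 regulators of MYB and TCP factors and 0 of 3 other known miRNAs lay above 0, and none of these miRNAs was without overlap.

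**Figure D5:**
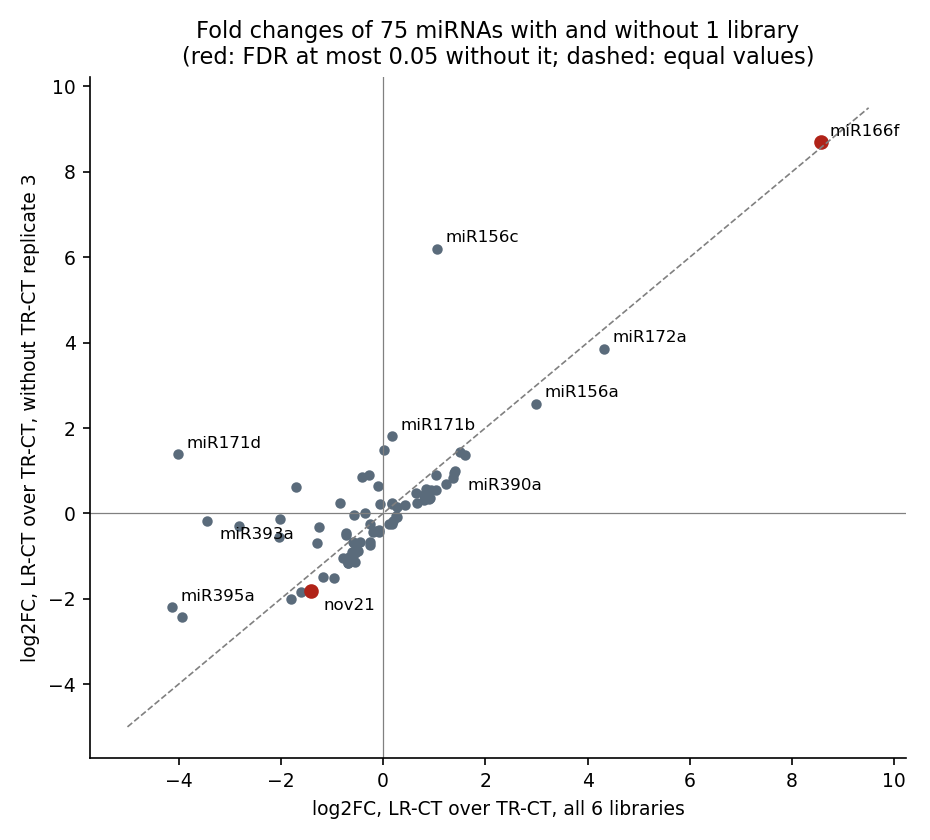
log2FC (LR-CT over TR-CT) of the 75 miRNAs with all 6 libraries on the x axis and without TR-CT replicate 3 on the y axis, with the 2 that passed an FDR of 0.05 without it in red. miR171d moved to 1.39 without it and had -4.00 with it, whereas miR166f changed little (8.70 without it and 8.57 with it).

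Sequence-named miRNAs had a log2FC above 0 in 15 of 24 cases, against 32 of all 75, and 6 of them were higher in LR-CT without overlap (12 of all 75) and 0 were lower (4 of all 75). Without TR-CT replicate 3, 12 of 24 lay above 0, against 35 of all 75, and when scaled by library size alone 21 of 24 did so, against 59 of all 75. nov15 had 6871, 18668 and 17691 counts in LR-CT, against 2717, 3137 and 426 counts in TR-CT, with a log2FC of 1.39 (SE 0.74). nov14 had 89, 155 and 156 counts in LR-CT, against 35, 25 and 18 in TR-CT, with a log2FC of 1.04 (SE 0.59). nov16 had 130, 272 and 223 counts in LR-CT, against 49, 46 and 0 in TR-CT, with a log2FC of 1.36, or 0.84 without TR-CT replicate 3. nov24 had 1075, 1130 and 1480 counts in LR-CT, against 383, 373 and 95 in TR-CT, with a log2FC of 0.83, or 0.46 without that library. These miRNAs were lowest in TR-CT replicate 3. Between LR-DS and TR-DS nov14, nov15, nov16, nov22 and nov24 overlapped. Their log2FC values there were -3.94, 0.45, -1.56, 0.83 and 0.06 (FDR 0.885, 0.906, 0.901, 0.885 and 0.983, edgeR).

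nov21 was the one sequence that passed in the opposite direction when that library was left out. It had 62, 100 and 113 counts in LR-CT, against 159, 112 and 18 counts in TR-CT. Its log2FC was -1.40 (SE 0.85, FDR = 0.488) with all 6 libraries and -1.82 (SE 0.25, FDR = 0.0243) without TR-CT replicate 3 (edgeR).

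TR-CT replicate 3 also had the fewest miRNAs detected, 63, against 69 to 74 in the other control libraries. All 75 miRNAs had at least 1 count in LR-CT and 74 in TR-CT, and 74 were found in each when libraries were thinned to 445139 counts. The thinned counts included nov20, so depth for the other miRNAs was not made equal. With at least 3 counts in every library of a group, 70 were found in LR-CT and 53 in TR-CT. This was not repeated at equal depth. Beside nov20 the TR-CT libraries held 138088 to 199650 counts, against 300906 to 557180 in LR-CT. 14 miRNAs were present in all LR-CT libraries and missing from at least 1 TR-CT library, and 9 miRNAs were missing from TR-CT replicate 3 alone among the 6.

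Summed by family, 0 of 47 rows (23 families and 24 sequences, 0%) passed an FDR of 0.05 and 8 (17%) were at or under an unadjusted p of 0.05 (edgeR), while DESeq2 called 8 and the likelihood ratio test 1. The groups did not overlap in 11 of 47 (23.4%). The totals of miR156, miR160 and miR395 had log2FC values of -0.77, -0.93 and -1.96, with FDR values of 0.432, 0.432 and 0.383 (edgeR), and of -0.95, -0.37 and -0.52 without TR-CT replicate 3. All these values rest on TMM factors of the summed table. With the TMM factors of the single miRNAs, 0 of 47 passed the FDR and 3 were at or under the unadjusted p of 0.05 (edgeR).

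Under drought, 0 of 74 miRNAs (0%) passed an FDR of 0.05 between LR-DS and TR-DS, with 4 (5.41%) at or under an unadjusted p of 0.05 and 5 (6.76%) without overlap (edgeR). The interaction of root type and drought also gave 0 of 75 (0%) past the FDR, with 5 (6.67%) at or under an unadjusted p of 0.05. Scaled by library size alone, the interaction gave 1 call.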

How the data were processed

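Small RNA reads were, per the study's methods, trimmed with Cutadapt, checked with FastQC, filtered at a minimum length, and mapped and quantified with ShortStack, which uses Bowtie, against miRBase sequences. For the small RNA reads, versions and a genome build are not given in the sources used here. The authors deposited whole read counts per miRNA without normalization, and these counts were used as they stand. Groups came from the sample titles. The description of LR-DS replicate 3 names the count column of LR-DS replicate 2, and the title was followed. The count column of TR-CT replicate 1 carries an added suffix and was taken for that library. The members and lists were chosen with earlier results of these data known.

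Counts of the 6 control libraries were compared in R 4.3.3 with edgeR 4.0.16 (TMM factors, quasi-likelihood F test, Benjamini-Hochberg adjustment over all rows, FDR 0.05). Family totals used TMM factors of the summed table, and those of the single miRNAs as an alternative. The SE is the absolute log2FC over the square root of F. log2 CPM used a prior count of 2. Values of 1 miRNA were also compared by an exact permutation test over 20 arrangements. The test was checked on simulated data. P-values measure the spread between the 3 pools of a group, which may be technical in part, as whether pools came from separate plants is not stated for each. Sequences came from the count table and the study's target table.

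Named were all miRNAs past the FDR, those without overlap between the groups, the 10 most abundant, those found in 1 root type only, and the totals of families with 3 or more members. miR166c, miR171d, miR393a, miR395a, miR395b, miR168a, miR390b, miR167a, miR156b and nov21 were named after their values were seen. The alternatives were scaling by library size, RLE factors and library size without nov20, DESeq2 1.42.0, the likelihood ratio test, 2 filters on low counts, a threshold of 0.1, the replicate block, 1 fit of 12 libraries and leaving out each library. Shares within families, their drought values, the miR395 ratios without TR-CT replicate 3 and the counts without overlap under left-out libraries were added after the data were examined. Plots were drawn in Python 3.11.15 with matplotlib 3.10.9.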

Additional observations from a re-analysis of the deposited data

How the results depend on the processing

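The count of 0 miRNAs past the FDR of 0.05 was also 0 with RLE factors, with library size without nov20, with at least 10 counts in every library and in 1 fit of all 12 libraries. It was 1 (miR166f) when scaled by library size alone, with the filterByExpr filter or at a threshold of 0.1, 2 (miR166f and miR172a) in the likelihood ratio test and 4 (miR166c, nov19, miR166f and nov22) in DESeq2. Leaving out 1 library gave 0 to 2 calls, the 2 without TR-CT replicate 3. For family totals DESeq2 gave 8 calls and the likelihood ratio test 1, and leaving out 1 library gave 0 to 0. With library size as the only scaling, the median log2FC over the 75 miRNAs shifted by 0.88, and 59 of 75 lay above 0, among them 4 of 5 miR164 members, 3 of 3 copper-related and 21 of 24 sequence-named miRNAs. Under that scaling the log2FC was reversed for miR396c (0.067), nov2 (0.72), miR166b (0.68), miR166e (0.48), nov3 (0.67) and miR166a (0.016), and for the totals of miR166 (0.32), miR171 (0.30), miR156 (0.80), miR164 (0.18), miR396 (0.10) and miR160 (0.37). Of 31 named values, 18 kept their direction under every alternative. Leaving out 1 library reversed nov2 (0.38 without TR-CT replicate 2), miR166b (0.05 without LR-CT replicate 1, 0.22 without TR-CT replicate 3), nov3 (0.11 without LR-CT replicate 1, 0.46 without TR-CT replicate 1, 0.19 without TR-CT replicate 2) and, without TR-CT replicate 3, miR166d (0.24), miR166e (0.89) and the total of miR166 (0.15). With 1 library left out, the log2FC ranged from -0.44 to 0.38 for nov2, from -0.035 to 0.22 for miR166b, from -1.15 to 0.24 for miR166d, from -0.51 to 0.89 for miR166e, from -0.39 to 0.46 for nov3 and from -1.66 to 0.15 for the miR166 total. The causes were not tested.

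Counts without overlap were 17 to 33 miRNAs and 9 to 20 member shares when 1 library was left out (27, 26 and 33 miRNAs without TR-CT replicates 1, 2 and 3, and 17 and 20 shares without TR-CT replicates 1 and 3), where fewer libraries make overlap rarer by construction. The difference in the miR390a share was 24.6 to 43.0 percentage points with 1 library left out and 11.1 in the drought libraries, and that of nov20 lay between -33.7 and -16.7. LR-DS against TR-DS gave 0 to 2 calls with 1 library left out (1 without LR-DS replicate 1 or 2, and 2 without TR-DS replicate 1), and the interaction gave 1 when scaled by library size alone. Same-numbered libraries did not deviate together (r = -0.05, -0.31 and 0.05 for replicates 1 to 3), so the replicate numbers were not taken as pairs. The replicate block gave 0 calls for miRNAs, family totals, LR-DS against TR-DS and the interaction, and reversed miR166e (0.16) and nov3 (0.16). Beside nov20 a control library held 138088 to 557180 counts, which limits the precision of miRNAs of a few counts.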

Other observations

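nov1 and nov6 carry the same 20-nt sequence, so reads of it cannot be told apart, and their rows still held different counts. These are not levels of separate sequences, and how the counting split the reads between the rows was not tested. nov1 had 795, 789 and 812 counts in LR-CT, against 761, 680 and 296 counts in TR-CT, whereas nov6 had 266, 100 and 201 counts in LR-CT, against 60, 74 and 0 counts in TR-CT. nov5 and nov18 differ at 1 of 22 positions. nov5 had 266, 684 and 393 counts in LR-CT, against 754, 5 and 10 counts in TR-CT, and nov18 had 73, 381 and 7 counts in LR-CT, against 113, 37 and 7 counts in TR-CT, so both varied by more than 10-fold within a root type.

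miR319a, which acts on TCP factors, had 535, 877 and 731 counts in LR-CT, against 556, 119 and 64 counts in TR-CT (log2FC 0.25, SE 0.82, or -0.06 without TR-CT replicate 3). miR403a, which acts on an Argonaute, had 1145, 1366 and 2085 counts in LR-CT, against 517, 547 and 595 counts in TR-CT, with a log2FC of 0.17 (SE 0.38) after scaling.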
